A study of Mus musculus with 21 samples.

Results

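The glycosylation enzymes of the secretory pathway build, trim and extend the sugar chains of proteins that pass through the endoplasmic reticulum and the Golgi apparatus. They were taken here by gene symbol alone, from 10 families: Alg, Man1 and Man2 (with a, b or c), Mgat, B4galt, B3gnt, Galnt, Gcnt, St3gal, St6gal with St6galnac, and Fut. The mouse bead array carries 198 probes for 92 such genes among its 45259 probes. A probe was kept where its detection p-value was under 0.05 on at least 3 arrays of an experiment. This kept 123 probes for 66 of the 92 genes in the genistein experiment, where 15406 genes were tested, and 125 probes for the same 66 genes in the estradiol experiment, where 15088 were tested.

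Prostate RNA came from males of 8 to 12 weeks, all heterozygous androgen reporter mice on the FVB/N background. Every animal, controls included, carries an integrated luciferase gene under a thymidine kinase promoter and androgen response elements (Slp-HRE2). In the genistein experiment 4 groups of 3 arrays each were compared: castrated or intact males, each given genistein or its vehicle. Genistein, a soy isoflavone, was injected subcutaneously at 300 µg per mouse daily (10 µg per g body weight) over 5 days in 0.1 ml of mineral oil with 2% dimethylsulfoxide, beginning 4 days after surgery in the castrated males. In the estradiol experiment 4 arrays of intact males given 17β-estradiol were compared with 5 of intact males given vehicle. Estradiol was dosed at 0.25 µg per mouse daily (10 µg per kg) over 4 days in 0.1 ml of oil with 0.5% ethanol, and tissue was taken 24 hours after the last dose in both experiments. Lobes, and whether an array holds 1 animal or a pool, are not stated in the labels, so the p-values measure only the spread between these arrays, which may in part be technical.

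An N-glycan starts as a mannose and glucose-capped precursor, assembled on the lipid dolichol by the ALG enzymes and transferred whole to a nascent protein in the endoplasmic reticulum. Mannosidases then trim it, and Golgi enzymes add N-acetylglucosamine branches (MGAT), galactose (B4GALT), lactosamine repeats (B3GNT), sialic acid (ST3GAL, ST6GAL) and fucose (FUT). O-glycans of the mucin type start with a single N-acetylgalactosamine placed by a GALNT enzyme and are branched by GCNT enzymes. The prostate epithelium secretes large amounts of glycoprotein into seminal fluid, and its secretory state depends on androgen.

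The share of probes detected differed with surgery in the genistein experiment. It was 44.98% to 46.37% on castrated arrays and 42.33% to 44.91% on intact ones, without overlap. On the estradiol-experiment arrays it was 44.2% to 47.0%. An array's mean correlation with the others of its group, over all genes, was 0.982 to 0.991 in the genistein experiment. In the estradiol experiment it was 0.956 to 0.988, vehicle array 1 being the lowest and vehicle array 4 the next, at 0.973. The castrated arrays lie on 1 chip and the intact arrays of the same experiment on another, and the effects of surgery and of chip cannot be told apart. Arrays 1 and 3 of the castrated genistein group stood apart: the summed signal of the 5 seminal vesicle secretory genes kept (Svs3a was not) was 1372 and 412 on them, against 21483 on array 2, 25804 to 65979 on castrated vehicle arrays and 55382 to 82426 on intact ones. The counts for castration under genistein, and the Galnt9, Man2a1 and St3gal6 results that rest on those arrays, are given with and without them.

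Most of the members that were kept were detected in every group. All 66 were detected on at least 1 array of both estradiol-experiment groups, and 62 were detected in all 4 groups of the genistein experiment. B3gnt5 and B4galt2 were not detected on any intact vehicle array, B3gnt7 on no castrated genistein array, and Mgat5 on no intact array of either treatment. The 26 genes not kept were Alg13, B3gnt2, B3gnt6, B4galt5, Fut1, Fut7, Fut11, Galnt4, Galnt5, Galnt6, Galnt7, Galnt12, Galnt13, Galnt14, Galntl5, Galntl6, Gcnt3, Gcnt7, Mgat2, Mgat4c, Mgat4d, Mgat4e, Mgat4f, Mgat5b, St6gal2 and St6galnac1. The Galnt and Mgat families lost the most, with 10 of 19 and 5 of 11 genes kept. Sialyltransferases of the St3gal family were all kept, as were the 9 mannosidases. The detection rule divided similar signals: B3gnt5 and B4galt2, detected on exactly 3 arrays, had median log2 signals of 4.74 and 4.77, while Fut1, Fut7, Gcnt3 and Mgat4e, detected on 2, had medians of 4.58, 4.63, 4.69 and 4.60.

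Within each role 1 probe gave the highest signal on the intact vehicle arrays of the genistein experiment. Brightness depends on the probe as well as on its transcript, so these values describe probes and do not rank transcripts. The log2 signal was 11.94 ± 0.17 (SD, n = 3) for Alg5, which makes the dolichol-linked glucose donor. It was 11.74 ± 0.22 for Man2a1, Golgi mannosidase II, and 11.37 ± 0.06 for Galnt2, an O-glycan initiating enzyme. The lysosomal mannosidase Man2b1 read 11.33 ± 0.07 and Mgat4a, a branching enzyme, 10.29 ± 0.57. Galactosyltransferase B4galt3 read 10.19 ± 0.10 and the I-branching enzyme Gcnt2 10.02 ± 0.20. The sialyltransferase St3gal3 read 9.86 ± 0.19 and the fucosyltransferase Fut2 9.57 ± 0.17. Mgat4a varied most between arrays among these 9, with an SD 2 or more times that of the rest.

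Castrated vehicle-treated males were compared first with intact ones, which lay on another chip. No group was given androgen, so dependence on androgen was not tested. Of the 66 members, 15 (22.7%) were lower and 9 (13.6%) higher in castrated males at an adjusted p under 0.05 (limma, moderated linear model, Benjamini-Hochberg adjustment over all genes). Over all genes tested, 10.0% were lower and 11.1% higher. The median member changed by -0.14 on the log2 scale and the median gene by 0.04. The fall was steepest in the O-glycan initiating enzyme Galnt18 and the mannosidase Man1a, then in the fucosyltransferases Fut2 and Fut4, while a smaller set led by Galnt9 rose. Scaling arrays to a common median in place of quantile normalization gave 9 lower and 9 higher, so the lower share of the members' calls moved from 62.5% to 50%. Over all genes it moved from 47.4% to 31.6%, with 6.83% lower and 14.8% higher, and the median of all genes moved from 0.04 to 0.14. The member median lay 0.18 below that of all genes under quantile normalization and 0.15 below it under median scaling. Whole tissue was measured, so fewer cells of a type and less RNA per cell cannot be told apart.

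**Figure D1:**
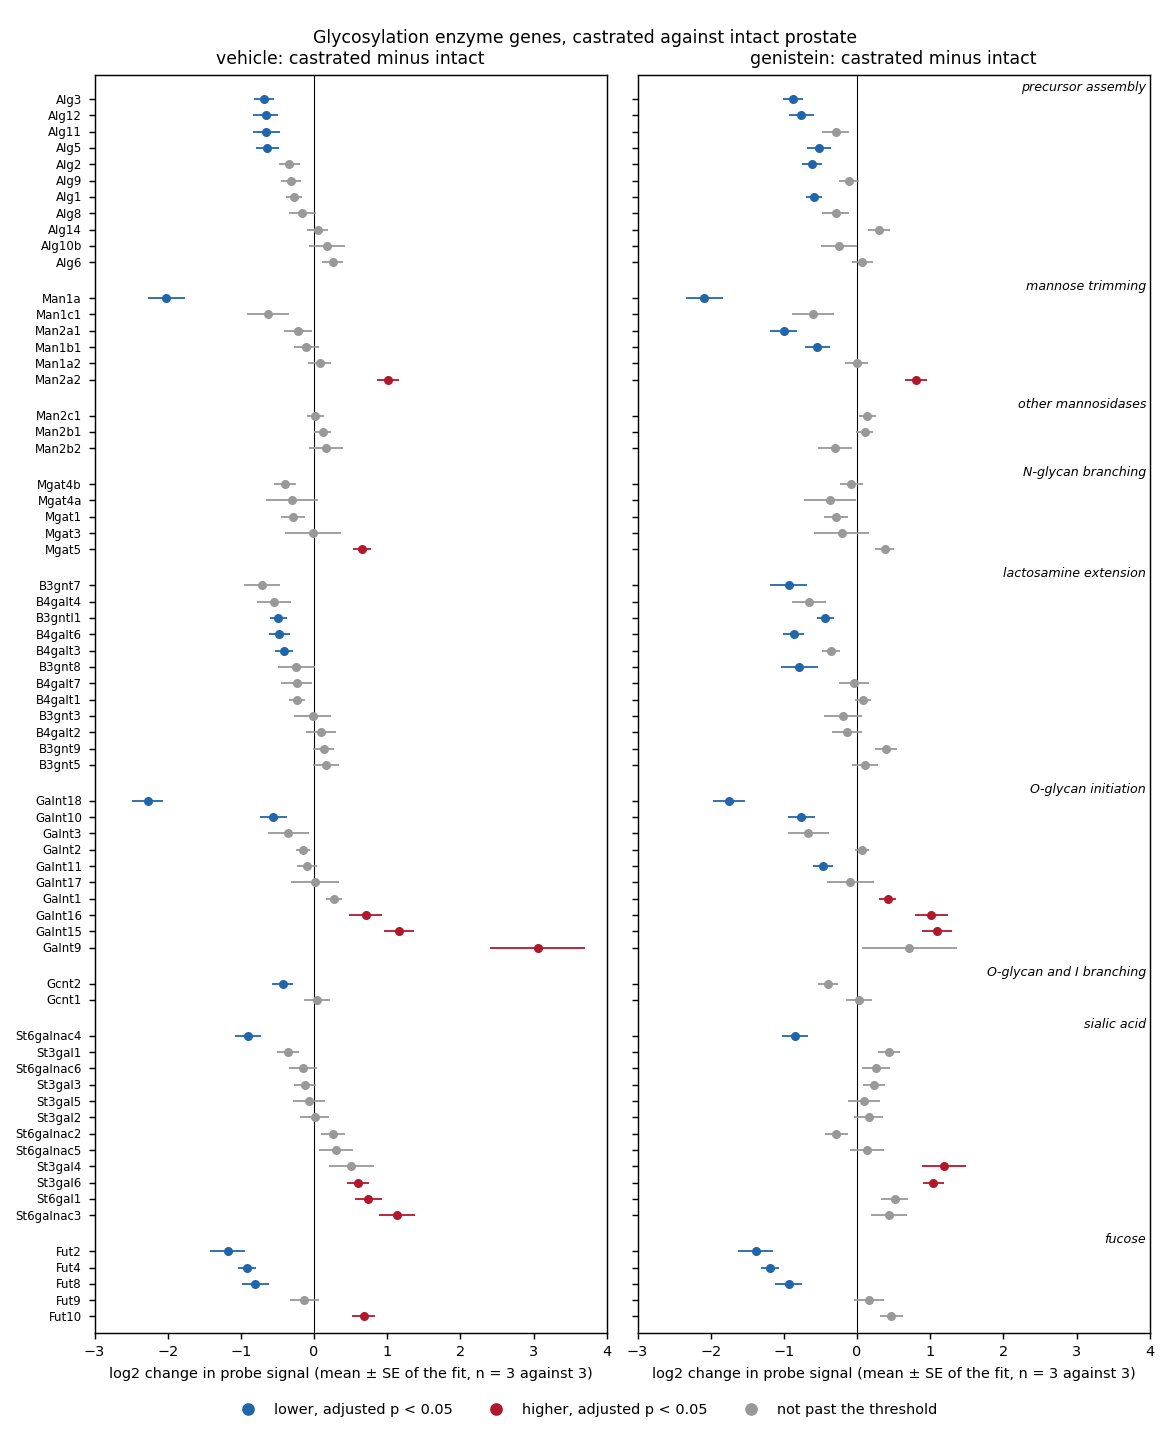
Log2 change from intact to castrated males for all 66 members, in order of role, in vehicle-treated (left) and genistein-treated males (right), with bars for the standard error from limma (3 arrays a group). Blue points were lower and red points higher at an adjusted p under 0.05, and grey points did not pass; Galnt18 and Man1a are the lowest points on both sides, and Galnt9 is the highest on the left only.

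Assembly of the lipid-linked precursor was represented by 11 members, and 4 of them fell, where 10.0% of all genes were lower. The median change of the 11 was -0.31, against 0.04 for all genes, and none rose. Alg3, which adds the first mannose inside the endoplasmic reticulum, read 8.53, 8.34 and 8.31 on the intact vehicle arrays and 7.94, 7.71 and 7.48 on the castrated ones. The groups did not overlap, and the change was -0.68 (SE 0.14, adjusted p = 0.00500, limma). Alg12, another mannosyltransferase of that compartment, read 10.3, 9.97 and 10.09 in intact and 9.42, 9.46 and 9.5 in castrated males. The castrated values lay within 0.1 of one another and below every intact one, a change of -0.66 (SE 0.17, adjusted p = 0.0164, limma). Alg5 read 12.09, 11.75 and 11.97 in intact against 11.34, 11.46 and 11.1 in castrated males, with no overlap. Its change was -0.64 (SE 0.16, adjusted p = 0.0140, limma). Alg11, a mannosyltransferase on the cytosolic face, changed by -0.65 (SE 0.18, adjusted p = 0.0253, limma). The other 7 did not pass: Alg2, Alg9, Alg1 and Alg8 had estimates of -0.34, -0.31, -0.27 and -0.16, and Alg14, Alg10b and Alg6 of 0.05, 0.18 and 0.25. Where every kept probe was tested, 1 of 3 Alg9 probes passed as lower, with estimates from -0.43 to -0.20. Only Alg3 passed with any 1 array left out. The count of lower precursor genes was 2 without castrated vehicle array 1 or 3, and 1 without intact vehicle array 1.

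The Alg12 promoter is shown because it was the single member promoter holding the ER stress response element, a motif bound by factors of the unfolded protein response and spelled here as CCAAT, 9 bases of any kind, then CCACG. The window ran from 250 bases before to 50 after each annotated start, on both strands. RefSeq (GRCm38.p6) held a window for 48 of the 66 members. The element stood in 37 of 27025 genes with a window (0.137%) and in 1 of the 48. The 250 bases before the start, chr15:88819319-88819568 on the minus strand, are printed 5′ to 3′ with both ends of the element in capitals.
Alg12: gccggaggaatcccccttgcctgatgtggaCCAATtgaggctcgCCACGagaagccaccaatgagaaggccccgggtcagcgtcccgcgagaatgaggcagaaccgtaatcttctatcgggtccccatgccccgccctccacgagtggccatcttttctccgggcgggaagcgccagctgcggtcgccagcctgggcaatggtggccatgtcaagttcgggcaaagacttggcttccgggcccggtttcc
The match starts 220 bases before the start. Its second end CCACG alone was common, in 35.5% of all genes, in 28 of the 48 members (58.3%), in 7 of the 11 lower members with a window and in 4 of the 7 higher ones. A second unfolded protein response motif, TGACGTGG, which contains CCACG on its other strand, stood in 0.714% of all genes and in 0 of the 48. These are matches of letters only and name no bound site.

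Mannose trimming held the largest fall among the N-glycan enzymes. Man1a, the Golgi mannosidase IA that cuts the precursor's outer mannoses, read 9.62, 8.56 and 9.08 on intact vehicle arrays. On castrated vehicle arrays it read 6.76, 7.33 and 7.12. Every castrated array lay more than 1 log2 unit below every intact one, and the change was -2.02 (SE 0.25, adjusted p = 0.000298, limma). A second Man1a probe was kept only because the intact arrays detected it, on all 3 intact and 0 castrated vehicle arrays. It gives a bound of at least 2.79-fold higher in intact males, which adds no support. Man2a2, a Golgi mannosidase II isozyme, went the other way, from 10.34, 10.8 and 10.53 in intact to 11.68, 11.52 and 11.5 in castrated males. Its change was 1.01 (SE 0.15, adjusted p = 0.000836, limma), and all 4 of its probes passed, between 0.85 and 1.21. The paralog Man2a1 had an estimate of -0.22 and did not pass, nor did Man1b1 (-0.11), Man1a2 (0.08) or Man1c1 (-0.62). The count over the 6 trimming genes was thus 1 lower and 1 higher, against 10.0% and 11.1% of all genes, with a median of -0.16. Where every kept probe was tested, 1 of 2 Man1c1 probes also passed as lower, with estimates of -0.78 and -0.62. Man2b1, Man2b2 and Man2c1 match the symbol rule but act in lysosomes or the cytosol, not on secreted chains in the Golgi; none of the 3 passed, and their median was 0.12.

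**Figure D2:**
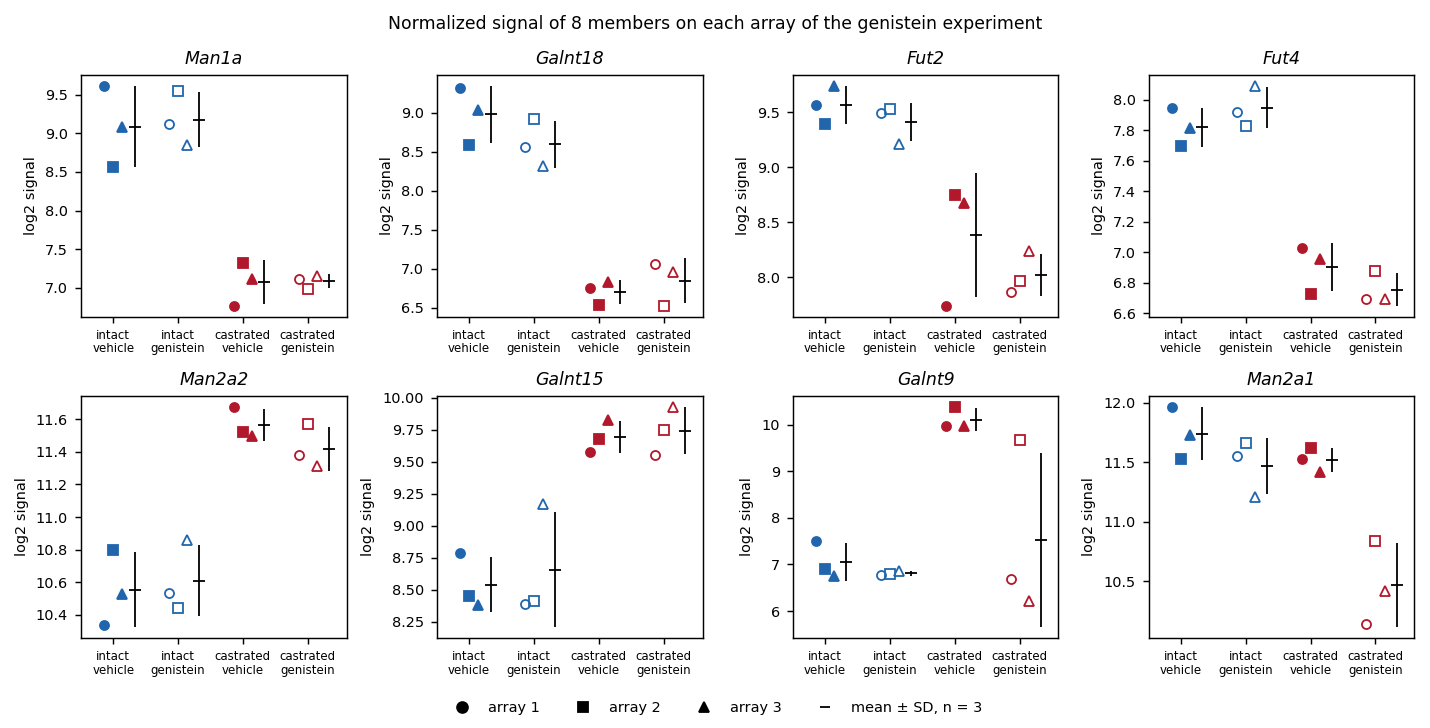
Log2 normalized signal of 8 members on each of the 12 arrays of the genistein experiment, by group, with the mean and SD of 3 arrays. Man1a, Galnt18, Fut2 and Fut4 sit lower on all 6 castrated arrays than on any intact array; Man2a2 and Galnt15 sit higher on all 6, and Galnt9 and Man2a1 differ among the castrated arrays.

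In N-glycan branching 1 of 5 members passed, as higher, where 11.1% of all genes were higher. Mgat5, which adds the β1,6 branch, read 5.46, 5.28 and 5.18 on castrated vehicle arrays and 4.69, 4.68 and 4.57 on intact ones, where it was not detected. The change is therefore a bound, at least 1.22-fold higher in castrated males (adjusted p = 0.00375, limma). Mgat5 was kept in this experiment only because castrated arrays detected it. Its call, 1 of the 9 higher ones, thus adds no support. Mgat1, which starts the first branch, had an estimate of -0.29, Mgat4a of -0.30, Mgat4b of -0.39 and Mgat3, which adds the bisecting residue, of -0.01. None of these 4 passed. Where every kept probe was tested, 1 of 2 Mgat4b probes passed as lower, with estimates of -0.57 and -0.39.

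Galactose and lactosamine extension had 12 members, with a median of -0.24. Of these 3 fell and none rose, against 10.0% and 11.1% of all genes. B3gntl1, a glycosyltransferase resembling the B3GNT enzymes, changed by -0.49 (SE 0.12, adjusted p = 0.0116, limma). Its 3 probes disagreed, the other 2 having estimates of 0.36 and 0.34 that did not pass. B4galt6, a lactosylceramide synthase, changed by -0.47 (SE 0.14, adjusted p = 0.0334) and B4galt3 by -0.41 (SE 0.12, adjusted p = 0.0334), both by limma. B4galt3 passed in only 1 of the 6 fits that left out an array, and none of the 12 passed under median scaling. B3gnt7, linked to keratan sulfate chains, had a larger estimate of -0.71 (SE 0.25) but did not pass (adjusted p = 0.0639, limma). B4galt4 had an estimate of -0.55 (SE 0.23, adjusted p = 0.113, limma), which was -0.30 without intact vehicle array 1.

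The B3gntl1 promoter is printed because it holds an androgen receptor half-site, AGAACA, in a gene whose brightest probe fell. The motif was searched on both strands of the same windows. It stood in 21.3% of all genes and in 8 of the 48 members (16.7%): B3gnt3, B3gntl1, Fut4, Fut8, Gcnt1, Gcnt2, Man1b1 and Mgat1. It stood in 4 of the 11 lower members with a window and in 0 of the 7 higher ones. The 250 bases before the start lie at chr11:121673152-121673401 on the minus strand (RefSeq, GRCm38.p6), with the motif in capitals 138 bases before the start.
B3gntl1: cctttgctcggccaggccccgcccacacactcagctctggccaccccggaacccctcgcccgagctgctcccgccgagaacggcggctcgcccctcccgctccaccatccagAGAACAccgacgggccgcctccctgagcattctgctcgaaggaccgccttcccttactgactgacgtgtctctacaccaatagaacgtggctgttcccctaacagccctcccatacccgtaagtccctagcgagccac
A match of 6 letters says nothing of binding, and the windows do not reach distal enhancers.

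O-glycan initiation moved in both directions, with 3 members higher and 2 lower of 10, against 11.1% and 10.0% of all genes. Galnt18 read 9.32, 8.59 and 9.04 on intact vehicle arrays and 6.75, 6.54 and 6.84 on castrated ones. The gap between the groups exceeded the spread within either, and the change of -2.27 (SE 0.21, adjusted p = 3.72e-05, limma) was the lowest of all 66 members. Galnt9 read 7.51, 6.9 and 6.75 in intact males and 9.96, 10.38 and 9.98 in castrated ones. The castrated values were higher on every array, a change of 3.06 (SE 0.65, adjusted p = 0.00677, limma). A second Galnt9 probe was kept only because the castrated arrays detected it, on 3 castrated vehicle and 0 intact arrays, and gives a bound of at least 1.43-fold, which adds no support. Galnt15 read 8.78, 8.45 and 8.38 in intact and 9.58, 9.68 and 9.83 in castrated males, without overlap. Its change was 1.16 (SE 0.20, adjusted p = 0.00233, limma), with 1.03 and 0.08 for its other probes, of which the latter did not pass. Galnt16 changed by 0.71 (SE 0.23, adjusted p = 0.0471) and Galnt10 by -0.56 (SE 0.18, adjusted p = 0.0494), both by limma and both with overlapping groups. The median of the 10 was -0.04, and it was 0.07 under median scaling and 0.09 in the authors' processed values, so the family as a whole has no settled direction.

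O-glycan and I-antigen branching had 2 members. Gcnt2, which makes the branched I antigen, read 10.25, 9.86 and 9.96 in intact and 9.47, 9.67 and 9.63 in castrated vehicle males. The groups did not overlap, and the change was -0.43 (SE 0.14, adjusted p = 0.0459, limma). It lost the call in 11 of its 15 alternatives. Gcnt1, the core 2 enzyme, did not pass.

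Sialic acid transfer had 3 of 12 members higher and 1 lower, against 11.1% and 10.0% of all genes. Its median of 0.13 was above that of all genes. St6galnac3, which places sialic acid on N-acetylgalactosamine, read 5.45, 6.24 and 6.2 in intact and 7.17, 6.92 and 7.21 in castrated vehicle males. No castrated array overlapped an intact one, and the change was 1.14 (SE 0.25, adjusted p = 0.00712, limma). Its relative St6galnac4 moved the opposite way, from 7.51, 7.32 and 7.49 to 6.63, 6.45 and 6.53. That change was -0.90 (SE 0.17, adjusted p = 0.00384, limma). St6gal1, which caps the galactose of N-glycans with α2,6-linked sialic acid, changed by 0.74 (SE 0.19, adjusted p = 0.0156, limma). St3gal6, an α2,3-sialyltransferase, read 8.83, 8.95 and 8.92 in intact and 9.54, 9.38 and 9.6 in castrated males. Its groups were apart by more than their spread, with a change of 0.61 (SE 0.15, adjusted p = 0.0141, limma). Leaving out 1 array gave 1 to 4 higher and 1 to 2 lower members in this role.

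Fucose transfer had the lowest median of any role, -0.80 over 5 members. Of these 3 were lower and 1 higher, against 10.0% and 11.1% of all genes. Those member counts were the same in each of the 6 fits that left out an array. Fut2, the α1,2-fucosyltransferase that makes the H antigen in secretory epithelia, read 9.57, 9.39 and 9.74 in intact and 7.74, 8.74 and 8.68 in castrated vehicle males. Array 1 of the castrated group was about 1 log2 unit below its partners, yet no array overlapped, and the change was -1.18 (SE 0.23, adjusted p = 0.00437, limma). Fut4, an α1,3-fucosyltransferase of the Lewis x type, read 7.95, 7.7 and 7.81 in intact and 7.03, 6.73 and 6.95 in castrated males. The groups stood clear of each other, with a change of -0.92 (SE 0.13, adjusted p = 0.000519, limma). Fut8, the only enzyme that adds fucose to the N-glycan core, read 9.43, 9.02 and 9.36 in intact and 8.07, 8.61 and 8.71 in castrated males. Again there was no overlap, with a change of -0.80 (SE 0.18, adjusted p = 0.00957, limma). Fut10 rose by 0.68 (SE 0.16, adjusted p = 0.0109, limma) on its brightest probe, while its other 3 probes had estimates from -0.00 to 0.32 and did not pass. Fut9 had an estimate of -0.13 and did not pass.

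Several probes were kept for 36 of the 66 genes, and their estimates shared a sign in 24. They differed in sign in 12: Alg8, B3gnt8, B3gnt9, B3gntl1, B4galt1, Fut10, Galnt2, Man1a2, Man2b2, St3gal3, St3gal5 and St6galnac2. For Galnt2, which did not pass on its brightest probe, they ran from -0.38 to 0.12, and 1 of the 3 probes passed as lower. In 0 genes did probes pass in opposite directions. With each of the 6 arrays left out in turn, 8 of the 15 lower members passed every time (Alg3, B3gntl1, Fut2, Fut4, Fut8, Galnt18, Man1a and St6galnac4), as did 6 of the 9 higher ones (Fut10, Galnt15, Galnt9, Man2a2, Mgat5 and St6galnac3). Mgat5 had been kept only through castrated arrays. The lower count was 9 without castrated vehicle array 3 and 8 without intact vehicle array 1.

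Castration of genistein-treated males used the other 6 arrays on the same chips. Of the 66 members 19 (28.8%) were lower and 6 (9.09%) higher, against 10.9% and 11.2% of all genes, and the median member changed by -0.17 against 0.04 for all genes. Man1a, at 9.12, 9.55 and 8.85 in intact and 7.12, 6.99 and 7.16 in castrated males, changed by -2.09 (adjusted p = 0.000231, limma). Galnt18 read 8.56, 8.92 and 8.32 in intact and 7.07, 6.53 and 6.96 in castrated males, a change of -1.75 (adjusted p = 0.000251, limma). Both again separated the groups fully. Fut2 changed by -1.39 (adjusted p = 0.00185), Fut4 by -1.19 (adjusted p = 8.72e-05) and Fut8 by -0.93, all by limma, and fucose transfer again had the lowest median of the roles, -0.93 with 3 of 5 lower. Galnt15 (1.09, adjusted p = 0.00336), St3gal6 (1.04, adjusted p = 0.000648) and Galnt16 (1.01, adjusted p = 0.00870) were higher by limma. St3gal4, another α2,3-sialyltransferase, read 5.3, 4.79 and 5.14 in intact and 6.47, 6.33 and 6 in castrated males. It changed by 1.19 (SE 0.30, adjusted p = 0.0158, limma), and the call was lost in 4 of 16 alternatives, with an adjusted p of up to 0.142. Precursor assembly had 5 of 11 lower, mannose trimming 3 of 6 lower and 1 higher, extension 4 of 12 lower, initiation 3 of 10 lower and 3 higher, and sialic acid transfer 1 of 12 lower and 2 higher. The median of the 3 lysosomal and cytosolic mannosidases was 0.10, and -0.02 under median scaling. Branching had none of 5 and Gcnt1 and Gcnt2 did not pass. Where every kept probe was tested, 1 probe each of Alg8, Galnt3 and Man1c1, not counted here, passed as lower. For B4galt1, also not counted, 1 probe passed as higher, but it was kept only because castrated genistein arrays detected it.

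Set side by side, 12 members were lower under both treatments, which is 12 of the 15 lower in vehicle-treated and 12 of the 19 lower in genistein-treated males. They were Alg12, Alg3, Alg5, B3gntl1, B4galt6, Fut2, Fut4, Fut8, Galnt10, Galnt18, Man1a and St6galnac4. Galnt15, Galnt16, Man2a2 and St3gal6 were higher under both, 4 of 9 and 4 of 6. Their probes did not all repeat this under genistein: 1 of 4 Man2a2 probes passed, with estimates from -0.07 to 0.81, and the 3 Galnt15 probes ran from -0.58, which did not pass, to 1.09. No member passed in opposite directions. Alg11, B4galt3 and Gcnt2 passed as lower under vehicle alone and Fut10, Galnt9, Mgat5, St6gal1 and St6galnac3 as higher. Under genistein alone Alg1, Alg2, B3gnt7, B3gnt8, Galnt11, Man1b1 and Man2a1 passed as lower and Galnt1 and St3gal4 as higher. The test of the difference between the 2 castration effects, which is also that of the genistein response between castrated and intact males, passed for 0 members, so none of these 17 is shown to differ. B3gnt7, not detected on the castrated genistein arrays, was at least 1.62-fold lower (adjusted p = 0.0201, limma), a call lost in 6 of 16 alternatives, with an adjusted p of up to 0.263. With castrated genistein array 2 as the sole castrated array, assumed to vary like the other groups, 6 members were lower (Alg3, B4galt6, Fut2, Fut4, Galnt18 and Man1a) and 3 higher (Galnt9, Man2a2 and St3gal6), while 3.23% of all genes were lower and 2.21% higher. Without array 2 there were 17 lower and 6 higher members, against 9.09% and 8.48% of all genes. The 25 members that passed with all arrays kept their sign in both of these fits. Without intact genistein array 2 the lower count was 12.

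Galnt9 and Man2a1 had their lowest signals of the experiment on the castrated genistein arrays that stood apart. Galnt9 read 6.69, 9.66 and 6.22 on castrated genistein arrays 1 to 3 and 6.77, 6.8 and 6.87 in intact genistein males. Array 2 was thus near the castrated vehicle level and arrays 1 and 3 near the intact level, with a group mean of 7.52 ± 1.87 (SD, n = 3). The castration estimate was 0.71 (SE 0.65, adjusted p = 0.472, limma) and did not pass. It was 2.85 with array 2 as the sole castrated array (adjusted p = 0.000656) and -0.35 without that array (adjusted p = 0.328), both by limma, so its direction rests on array 2. Man2a1 read 10.14, 10.84 and 10.42 on castrated genistein arrays, below the 11.55, 11.66 and 11.21 of intact genistein males and the 11.53, 11.62 and 11.42 of castrated vehicle males. Its castration change under genistein was -1.005 (SE 0.19, adjusted p = 0.00322, limma). With array 2 as the sole castrated array it was -0.63 and did not pass (adjusted p = 0.140), and without that array it was -1.19 (adjusted p = 0.00163), both by limma. The 2 arrays with the lowest Galnt9 and Man2a1 signals in that group were those with 1372 and 412 units of summed seminal vesicle signal. How far seminal vesicle tissue had a part in these values was not tested.

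**Figure D3:**
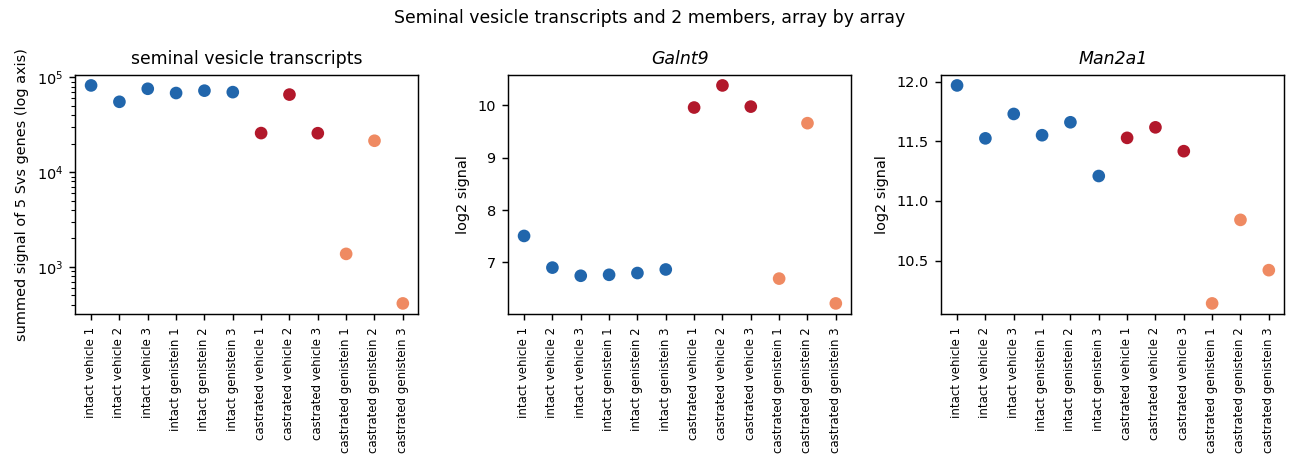
Summed linear signal of 5 seminal vesicle secretory genes (log axis) and the log2 signals of Galnt9 and Man2a1 on each of the 12 arrays of the genistein experiment. Castrated genistein arrays 1 and 3 are lowest for the seminal vesicle sum and read 6.69 and 6.22 for Galnt9, while array 2 reads 9.66.

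Markers of other cell types moved with castration, and the values for each treatment stand beside its changes. Over all genes 11.1% were higher and 10.0% lower under vehicle, and 11.2% higher and 10.9% lower under genistein. In vehicle-treated males all 6 macrophage markers kept of 8 (Cd68 and Emr1 were not) were higher, and their summed signal was 6618 to 7193 on castrated and 2528 to 3309 on intact arrays. All 5 lymphocyte markers kept were higher, with sums of 383 to 484 against 187 to 200. Of 7 fibroblast markers 4 were higher, with sums of 29600 to 36507 against 18445 to 21298, and 1 to 3 were higher with any 1 array left out. Of 5 endothelial markers 2 were higher, and 1 to 3 with an array left out. Of 8 smooth muscle markers 3 were lower, with sums of 49526 to 58465 against 63361 to 74233. The 4 prostate secretory genes kept of 6 (Spink3 and Sbp were not) were all lower, with sums of 14801 to 19018 against 78741 to 84063. The 8 luminal epithelial markers kept (Epcam and Tacstd1 were not) had 1 higher and 2 lower, with sums of 20968 to 22403 against 19479 to 20223. None of 7 basal, 5 skeletal muscle or 5 seminal vesicle markers passed, and of 5 urothelial ones 2 were higher (0 to 3 with 1 array left out) and 1 lower. Under genistein 5 of the 6 macrophage and 3 of the 5 lymphocyte markers were higher, with macrophage sums of 6280 to 8113 on castrated and 2365 to 4335 on intact arrays. Smooth muscle markers were lower in 6 of 8, with sums of 40484 to 55829 against 64641 to 82360, and in 2 of 8 with castrated genistein array 2 as the sole castrated array. Of the 5 seminal vesicle markers 3 were lower, with a median of -4.79, against 0 under vehicle, and 2 were lower with array 2 as the sole castrated array. The 4 secretory genes were again all lower, with sums of 12270 to 24025 against 76402 to 83260, and of 8 luminal markers 2 were lower, with sums of 17164 to 19846 against 17783 to 22023. Fibroblast markers were higher in 2 of 7, endothelial in 1 of 5 and urothelial in 2 of 5, with 1 urothelial marker lower, and none of the basal or skeletal muscle markers passed. The part of tissue make-up in the members' changes was not tested.

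The other genes of the glycosylation machinery were mostly lower or not past the threshold after castration. Of 90 listed genes of the same pathway outside the symbol rule, 64 were tested. Castration in vehicle-treated males lowered 34 of them (53.1%) and raised 1, with a median of -0.49, where 10.0% of all genes were lower and 11.1% higher. Under genistein 42 (65.6%) were lower and 2 higher, with a median of -0.60, where 10.9% of all genes were lower and 11.2% higher. Leaving out 1 array gave 27 to 33 lower in vehicle-treated and 32 to 41 in genistein-treated males. In the oligosaccharyltransferase, which transfers the finished precursor, 5 of 9 subunits were lower, among them Rpn1 (-1.15, SE 0.24, adjusted p = 0.00615) and Dad1 (-0.58, SE 0.11, adjusted p = 0.00449). The Rpn1 probe was near background in castrated vehicle males, at 4.61, 5.65 and 4.92, and was detected on 2 of those 3 arrays. Of 10 dolichol supply genes 3 were lower, Dhdds, the cis-prenyltransferase that makes the dolichol chain, by -1.07 (SE 0.12, adjusted p = 0.000132) and Dpm3 by -0.49 (adjusted p = 0.0151). Among glucosidases and folding lectins 5 of 9 were lower, with Edem2 at -1.19 (adjusted p = 0.00271) and Edem1 at -1.13 (adjusted p = 0.000464), both of which direct misfolded glycoproteins to degradation. All these p-values are from limma.

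Enzymes that make nucleotide sugars, the donors of every step, had 9 of 14 lower and a median of -0.64, where 10.0% of all genes were lower. Gmppb, which makes GDP-mannose, read 8.91, 8.41 and 8.68 on intact and 7, 7.13 and 6.5 on castrated vehicle arrays. The groups lay more than 1 log2 unit apart, a change of -1.79 (SE 0.25, adjusted p = 0.000527, limma). Nans, the sialic acid synthase, read 10.63, 10.63 and 10.74 in intact and 9.18, 9.47 and 9.26 in castrated males. Its change was -1.37 (SE 0.16, adjusted p = 0.000176, limma). The enzyme for sialic acid supply was thus lower in the same tissue in which 3 of 12 sialyltransferases were higher and 1 lower. Of 9 sugar transporters of the Golgi 5 were lower, with Slc35a3, which carries UDP-N-acetylglucosamine, at -1.27 (SE 0.17, adjusted p = 0.000464) and Slc35b4 at -0.69 (adjusted p = 0.00789), both by limma. Of 13 other terminal and core enzymes 7 were lower. Abo, which extends the H antigen made by Fut2, read 12.3, 11.66 and 11.57 in intact and 4.41, 5.18 and 5.31 in castrated vehicle males, a change of -6.87 (SE 0.27, adjusted p = 4.58e-08, limma). It was detected on 2 of the 3 castrated vehicle arrays, near background, so the size of its fall is limited by the floor. B4galnt2, which makes the Sd(a) antigen, changed by -1.66 (SE 0.25, adjusted p = 0.000788, limma). St8sia4, a polysialyltransferase, was the only 1 of the 64 that rose, by 0.66 (SE 0.13, adjusted p = 0.00526, limma).

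**Figure D4:**
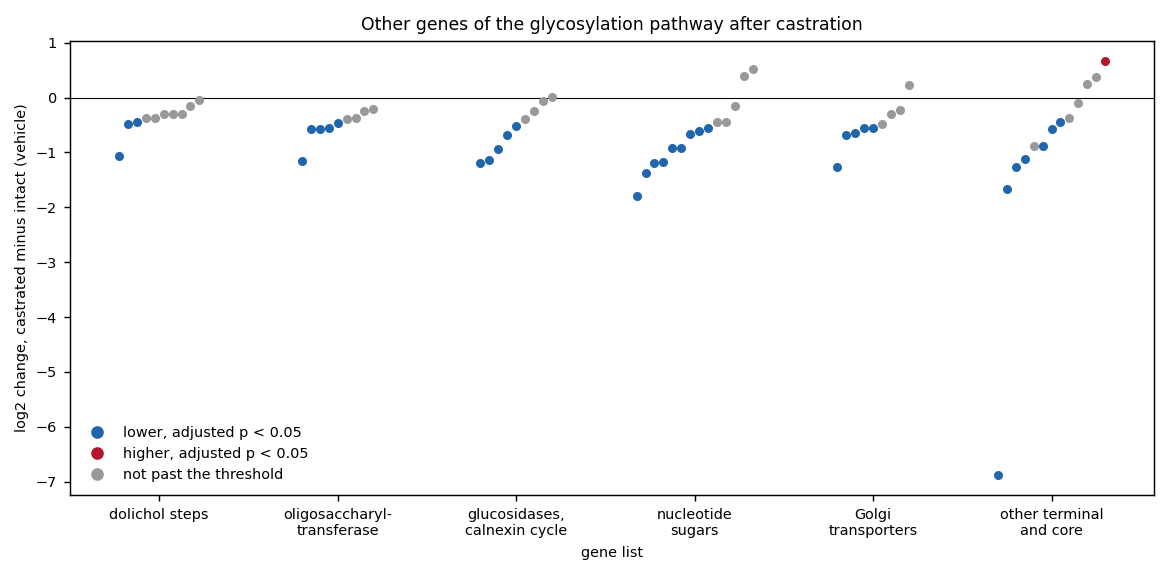
Log2 change from intact to castrated vehicle-treated males (limma, 3 arrays a group) for 64 pathway genes outside the symbol rule, in 6 lists. Most points lie below 0: 34 passed as lower and 1, St8sia4, as higher, with Abo lowest at -6.87. Over all genes 10.0% were lower and 11.1% higher.

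Genistein in castrated males gave 0 member calls, as for all genes, where 0 passed. At an unadjusted p under 0.05 there were 9 members and 1459 genes. Groups did not overlap for 11 members (16.7%; 4 higher and 7 lower), close to the 17.5% of all genes, and the median member changed by -0.08. Man2a1 had the lowest p, with an estimate of -1.05 (SE 0.19, unadjusted p = 0.00012, adjusted p = 0.168, limma). Galnt9 came next at -2.58 (SE 0.65, unadjusted p = 0.00198, adjusted p = 0.240, limma). St3gal6 read 10.13, 9.65 and 10.19 with genistein and 9.54, 9.38 and 9.6 with vehicle, an estimate of 0.48 (SE 0.15, adjusted p = 0.335, limma). These 3 depended on which arrays were used. Without castrated genistein array 2, 28 genes were higher and 116 lower over the whole array, and these 3 were among them, Galnt9 at -3.65 (adjusted p = 1.15e-05), Man2a1 at -1.24 (adjusted p = 0.00655) and St3gal6 at 0.65 (adjusted p = 0.0488), all by limma. With array 2 as the sole treated array the estimates were -0.45, -0.68 and 0.14 and the member median was 0.008.

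Genistein in intact males also gave 0 member calls, with 0.00649% of all genes called, which is 1 gene. An unadjusted p under 0.05 was reached by 4 members and 1141 genes. Groups did not overlap for 4 members (6.06%) against 10.7% of all genes. St3gal1, which caps core 1 O-glycans with sialic acid, read 6.87, 6.98 and 6.96 with vehicle and 6.42, 6.38 and 6.65 with genistein, an estimate of -0.46 (SE 0.15, adjusted p = 0.639, limma). Gcnt1 read 6.87, 7.47 and 7.19 with vehicle and 7.58, 7.51 and 7.91 with genistein, an estimate of 0.49 (SE 0.18, adjusted p = 0.639, limma). St6galnac6 read 5.73, 6.06 and 6.09 against 5.79, 5.17 and 5.32, an estimate of -0.54 (SE 0.20, adjusted p = 0.639, limma). The first 2 separated the groups and the last did not, and none passed. The 2 kept St6galnac6 probes differed in sign, with estimates of -0.54 and 0.01.

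The genistein response of castrated males minus that of intact males passed for 0 members and 0 genes, with 4 members and 1122 genes at an unadjusted p under 0.05. St3gal1 read 6.61, 6.89 and 6.27 on castrated vehicle and 7.01, 6.78 and 6.96 on castrated genistein arrays, and its difference was 0.79 (SE 0.22, adjusted p = 0.509, limma). For Man2a1 the difference was -0.79 (SE 0.26, adjusted p = 0.601, limma) and for Galnt9 -2.34 (SE 0.92, adjusted p = 0.633, limma). Galnt9 passed without castrated genistein array 2, at -3.41 (adjusted p = 0.000373, limma).

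**Figure D5:**
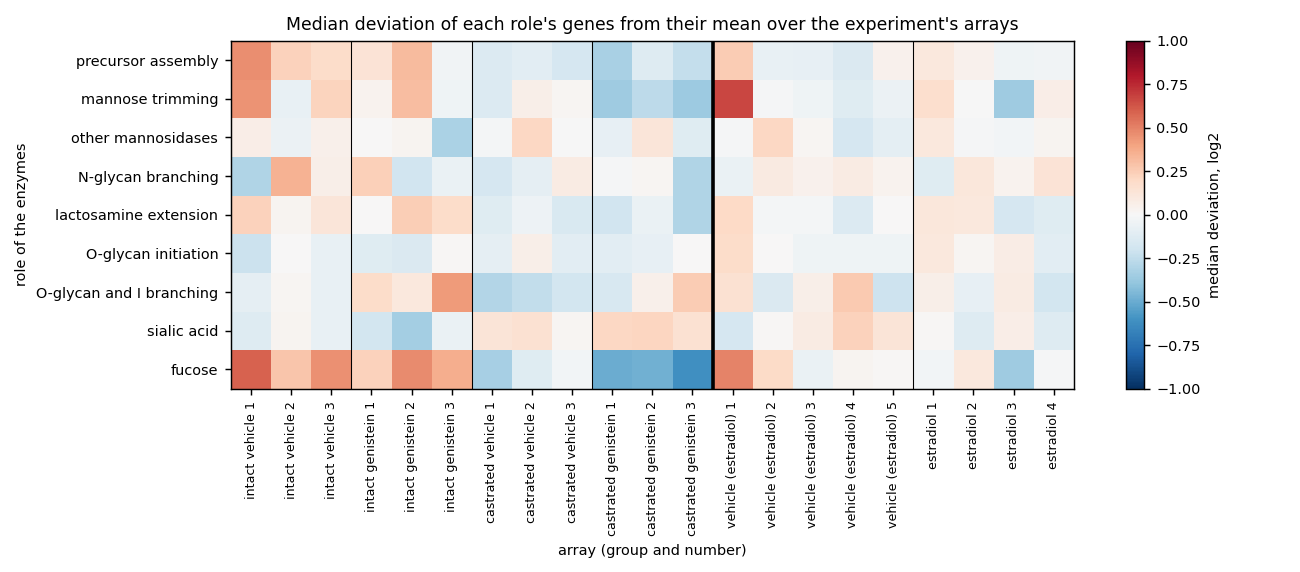
Heat map of the median deviation of each role's members from their mean over the experiment (log2, colours from -1 to 1), for the 9 roles on the 21 arrays. Fucose transfer is lower on the 6 castrated arrays than on the 6 intact ones of the genistein experiment, and vehicle array 1 of the estradiol experiment is high for mannose trimming (0.66).

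Estradiol in intact males gave 0 member calls and 0 calls over all genes, with 3 members and 1044 genes at an unadjusted p under 0.05. Groups did not overlap for 2 members (3.03%), near the 2.82% of all genes, and the member median was -0.05 against 0.009 for all genes. Mgat5 read 5.71, 6.72, 6.51, 6.72 and 6.26 with vehicle and 7, 6.95, 6.86 and 6.98 with estradiol. Every estradiol array was above every vehicle array, but the estimate of 0.57 (SE 0.20, adjusted p = 0.656, limma) did not pass. B3gnt5, which starts lacto-series glycolipids, read 5.18, 5.03, 4.99, 5.45 and 4.97 with vehicle and 6.16, 5.63, 5.11 and 5.87 with estradiol. These groups overlapped, with an estimate of 0.57 (SE 0.20, adjusted p = 0.656, limma). B3gnt9 read 9.25, 9.09, 9.17, 9.01 and 9.04 with vehicle and 8.95, 8.86, 8.67 and 8.8 with estradiol, an estimate of -0.29 (SE 0.11, adjusted p = 0.656, limma). The B3gnt9 groups did not overlap, but its 4 kept probes differed in sign, from -0.29 to 0.14. On chip 3 alone, which holds all 4 estradiol arrays and vehicle arrays 1 and 2, the 3 estimates were 0.73, 0.59 and -0.35 and did not pass. Without vehicle array 1, which had the lowest Mgat5 signal, the Mgat5 estimate was 0.40 (adjusted p = 0.309, limma). Among the members that changed with castration in vehicle-treated males, 5 had estimates of -0.50 (Man1a, SE 0.35), -0.14 (Galnt18, SE 0.22), -0.02 (Fut2, SE 0.24), -0.27 (Fut4, SE 0.16) and -0.24 (Galnt9, SE 0.20) under estradiol, none of which passed (limma).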

How the data were processed

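The authors deposited a table per experiment that pairs each probe's bead intensity with a detection p-value on every array; the intensities are linear and unnormalized, as the values show. Software is given as BeadStudio, with no version, per the submitters' processing notes. Another table of the authors holds processed intensity, by a method not given in the sources used here. In R 4.3.3 with limma 3.58.1, neqc corrected background (normexp, offset 16), quantile-normalized and took log2 within each experiment. Where a gene had several kept probes, the brightest stood for it. One linear model with 4 group means was fitted to the 12 genistein-experiment arrays and another to the 9 estradiol-experiment arrays (lmFit, eBayes, two-sided, Benjamini-Hochberg adjustment over all genes tested, threshold 0.05); these are the adjusted p-values given. An undetected group has only a bound, computed from the lowest detected signal of each array. The fits were tested on simulated data. Figures were drawn with matplotlib 3.10.9 in Python 3.11.15.

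The members, the pathway list and the marker lists were chosen with earlier results of these data known, so no count over them is independent evidence. Named genes were those past the threshold with a log2 change of at least 1 or the largest change in a family (castration, vehicle), up to 10 passing members or the 3 of lowest p elsewhere, the brightest probe of each role, members whose probes differ in sign, those at the edge of detection and the 2 largest changes of each pathway list; other members past the threshold were named after their values were seen. Replicate numbers in the labels were not used to pair arrays. Same-numbered arrays correlated at -0.08, -0.17 and 0.04 (castration, vehicle), and each of the other comparisons had at least 1 correlation under 0.1. The highest were 0.34 and 0.26, for replicates 1 and 3 of the estradiol comparison. So few correlations cannot show whether arrays were paired. Alternatives were median scaling, offset 50, the authors' processed values, other detection filters, every kept probe, chip terms, the replicate number as a block and leaving out each array. The number of arrays limits the precision. RefSeq promoter windows were matched by gene identifier.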

Additional observations from a re-analysis of the deposited data

Results flagged for a closer look

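Of 64 sets of values tested for a single array far from the rest of its group, 4 were picked out; chance alone picks out about 1 in 20. Of the 4 picked out, 3 concern vehicle array 1 of the estradiol experiment, which also had the lowest correlation with its group. The median deviation of the 66 members from their mean over the experiment was 0.1732 on this array and between -0.0380 and 0.0183 on the other 4 vehicle arrays. For the mannose trimming genes it was 0.6643, against -0.122 to -0.0129. For the O-glycan initiating genes it was 0.1842, against -0.0467 to 0.00572. Without this array the estradiol comparison still gave 0 member calls.

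The other value was Man1a on estradiol array 3, at a log2 signal of 7.178, where the other 3 estradiol arrays read 8.65 to 8.86 and the vehicle arrays 8.5 to 9.58.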

How the results depend on the processing

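For the 35 gene results chosen by the naming rule no direction changed under any alternative, read at the brightest probe or the probe mean. Of the recomputed values, 537 lay on the same side of the threshold, 27 were no longer past it and 6 newly past it. The fit to every kept probe was read at the brightest one, so it could not show a reversal by another probe. Such probes differed in sign for Galnt15 (castration under genistein, -0.58 to 1.09), B3gnt9 (estradiol, -0.29 to 0.14) and St6galnac6 (genistein in intact males, -0.54 to 0.01). Outside the 35 results, the Galnt9 estimate for castration under genistein turned from 0.71 to -0.35 without castrated genistein array 2. The 15 lower calls of castration in vehicle-treated males became 9 under median scaling and 8 to 16 with 1 array left out, and the member median of -0.14 became -0.00789 and -0.2105 to -0.1185. For castration under genistein the member median was -0.1014 with offset 50, -0.2744 in the authors' processed values, -0.04783 with no detection filter, -0.2303 with a strict one, -0.1004 with castrated genistein array 2 alone and -0.2529 to -0.06333 with 1 array left out. The lower count there was 12 to 17 with 1 array left out and 6 with array 2 alone, which gave 3 higher. For genistein in castrated males the median was -0.1309 under median scaling, -0.03148 with no filter, -0.02733 over every kept probe, 0.007951 with array 2 alone and -0.1317 to -0.04658 with 1 array left out, with 0 to 3 calls. For the difference of responses it was -0.2582, -0.01318 (every probe), -0.02705 (array 2 alone) and -0.1149 to -0.02482, with 0 to 1 calls. Median scaling gave 0.115 for genistein in intact males and 0.1028 for estradiol, and estradiol on chip 3 alone, or with chip as a block, gave -0.1346. With the replicate number as a block, castration gave 8 higher and 13 lower under vehicle and 6 and 18 under genistein, and 0 calls elsewhere; B3gnt7 passed under it (adjusted p = 0.0199, limma). The cause of these shifts was not tested. Members near background are limited by signal over background, and castration is confounded with chip throughout.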
